A study of Rattus norvegicus with 8 samples.

Results

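Complement genes expressed in the rat brain were followed here through C1qa, C1qb, C1qc, C1r, C1s, C3, Serping1 and Cd59, 8 of the 22601 genes listed in every library. Their rows were picked by NCBI GeneID. RefSeq lists 7 of them under these symbols in the rat assembly GRCr8, and Cd59 was matched through a synonym of its RefSeq symbol Cd59b. RNA was taken from the hippocampus, dissected from both sides of the brain, of wild type Wistar rats of 180 to 220 g, and mRNA was captured and sequenced with 1 library per rat. The Con. group (3 libraries) received saline and then the solvent of the drug by gavage. The PTZ group (3 libraries) received intraperitoneal pentylenetetrazole, a blocker of GABA-A receptors, at 35 mg/kg every 48 h for 28 days (14 injections), then 60 mg/kg on the last day, and after that the solvent for 28 days. Repeated low doses of this drug kindle the brain, so that doses that at first cause no convulsion come to cause one. The Q808 group (2 libraries) had the same PTZ course, followed by gavage with 30 mg/kg a day of Q808, an anticonvulsant candidate with a tetrazolo-phthalazine core, for 28 days. Rats of the PTZ and Q808 groups were given another PTZ dose after the last gavage, shortly before the tissue was taken, and Con. rats were not, so PTZ against Con. includes a recent injection as well as kindling. No group received Q808 without PTZ.

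Complement is a chain of secreted proteins that tags debris, microbes and, in brain, synapses for removal. In the classical pathway C1q, built from the products of C1qa, C1qb and C1qc, recognises the target and activates the protease C1r and, through it, C1s. C1s cleaves C4 and C2, whose products form an enzyme that in turn cleaves C3. The C1 inhibitor, made from Serping1, blocks C1r and C1s, and Cd59 on the cell surface stops the assembly of the terminal pore. In brain, C1q comes chiefly from microglia, which engulf synapses carrying complement tags through receptors for C3 fragments. Whole tissue was measured, so fewer cells of a type and less RNA per cell cannot be told apart.

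Levels are in FPKM, the fragments of a gene divided by its length and by the mapped total of the library, so that values can be compared between genes. The values of each gene turned out to be whole multiples of the worth of 1 read, and whole read numbers were found for all 15593 genes tested, with totals of 12133712 to 16872205 reads per library. Behind the 8 genes these lay between 62 reads for C1s in Q808-1 and 2419 for Cd59 in Con.-2, which gives counting errors of 2.03% to 12.7% of a value.

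The tissue label held unevenly across the libraries. Con.-3, PTZ-3 and Q808-1 had summed levels of 760 to 1656 FPKM over 8 markers of striatal neurons, against 59.4 to 81.4 FPKM in the other 5 libraries. Over 6 markers of dentate granule cells the sums were 34.9 to 121.5 FPKM in those 3 libraries and 148 to 192 FPKM in the other 5. Among them, Prox1 was at 2.84 to 4.04 FPKM in the 3 and at 12.2 to 16.6 FPKM in the 5. C1ql2 split the same way. Calb1 did not, at 87.7, 112 and 26.0 FPKM in Con.-3, PTZ-3 and Q808-1 and 66.7 to 87.0 FPKM in the other 5. Dsp and Npnt overlapped between the sets, and Tdo2 was at most 0.15 FPKM. Each group held 1 library with high striatal markers, so that split crossed the groups. Between these 3 libraries and the other 5, 24.8% of all genes tested did not overlap, and of the 8 complement genes only C3 was among them.

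The 8 genes fell into a high and a low tier. Cd59 (mean over the 8 libraries 87.4 FPKM, above 94.7% of tested genes) and C1qa (70.0 FPKM) stood highest, followed by C1qb (37.6 FPKM) and C1qc (22.5 FPKM). Serping1 (6.25 FPKM), C1r (4.77 FPKM), C3 (4.24 FPKM) and C1s (2.40 FPKM) lay far lower, and C1qc was above Serping1 in 8 of 8 libraries. C1qa exceeded C1qb, C1qb exceeded C1qc and C1r exceeded C1s in every library. Neighbours in that order did not always keep their place. Cd59 was above C1qa in 5 of 8 libraries and below it in Con.-3, PTZ-3 and Q808-1, the libraries rich in striatal markers, and C1r was above C3 in the same 5 libraries and below it in the same 3. The widest spread was that of C3, whose highest library had 7.83 times the level of its lowest, and the narrowest was that of Cd59, at 1.91 times.

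**Figure D1:**
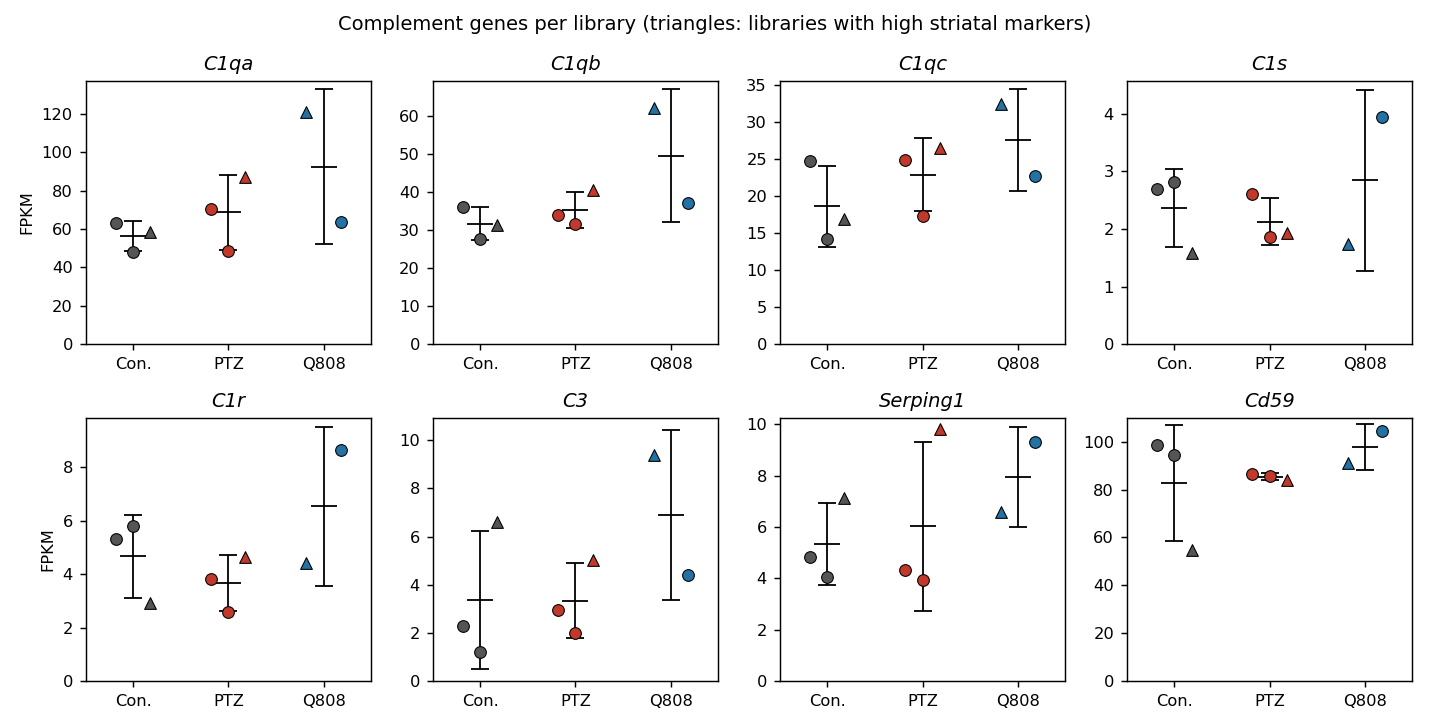
FPKM of the 8 complement genes in each library, 1 panel per gene on a linear axis from 0, with the groups along the horizontal axis; the dash and bars show the group mean ± SD and triangles mark the 3 libraries with high striatal markers. The highest C1qa, C1qb and C1qc points are all Q808-1, the highest C1r and C1s points are both Q808-2, and the C3 triangles sit above every circle.

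None of the 8 genes changed by the call used here in any of the 3 comparisons, which was an unadjusted limma p under 0.05 with more than 1.5-fold change. Among all genes tested, 2.53% were called in PTZ against Con., 1.92% in Q808 against PTZ and 3.46% in Q808 against Con., so a count of 0 of 8 is near that background. No member passed at an unadjusted p under 0.05 either, and the adjusted limma p-values were 0.999 in PTZ against Con., 0.952 in Q808 against PTZ and 0.901 to 0.945 in Q808 against Con. The fitted differences leaned to one side where Q808 was compared. On the scale of log2(FPKM + 0.1), 6 of 8 genes were higher in PTZ than in Con., with a median difference of 0.13, while 43.0% of all genes were higher and their median was -0.04. All 8 were higher in Q808 than in PTZ (median 0.42, with 61.7% of all genes higher and a median of 0.10), and all 8 were higher in Q808 than in Con. (median 0.58, with 55.3% of all genes higher and a median of 0.04). The last 2 comparisons share the Q808 libraries, and each group of 3 enters 2 comparisons, so these counts are not separate pieces of evidence. Within the 5 libraries low in striatal markers, all 8 were higher in Q808 than in either group, and 4 were higher in PTZ than in Con. Within the other 3, where each group has 1 library, 5 of 8 were higher in Q808 than in PTZ (all but C1r, C1s and Serping1), 7 of 8 were higher in Q808 than in Con. and 7 of 8 in PTZ than in Con. Of the 8 genes, none had groups that did not overlap in PTZ against Con. (all genes, 9.15%), 1 in Q808 against PTZ (Cd59, all genes 15.6%) and 2 in Q808 against Con. (C1qa and C1qb, all genes 20.0%).

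**Figure D2:**
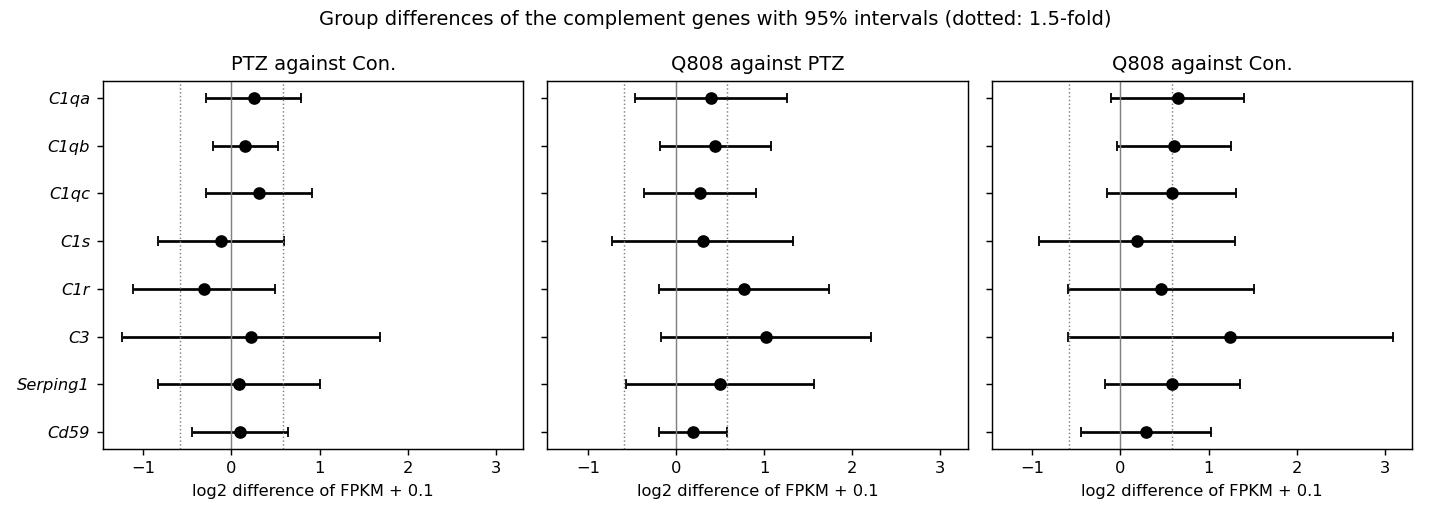
Differences of log2(FPKM + 0.1) between groups for the 8 genes, first-named group minus second, with 95% limma intervals as bars; the solid line is no difference and the dotted lines mark 1.5-fold. Every interval crosses 0, the C3 intervals are among the widest, and all 8 points lie to the right of 0 in both comparisons with Q808.

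The recognition genes varied together across the libraries. C1qa, which encodes the A chain of C1q, was at 63.2, 47.8 and 58.3 FPKM in Con., at 70.5, 48.5 and 86.9 FPKM in PTZ and at 121 and 63.9 FPKM in Q808. Q808-1 stood above all other libraries and Q808-2 lay inside the PTZ range, just above the highest Con. library. C1qb, the B chain, was at 36.1, 27.6 and 31.5 FPKM in Con., at 33.9, 31.6 and 40.7 FPKM in PTZ and at 62.1 and 37.2 FPKM in Q808, with the same library on top and Con.-2 again lowest. C1qc, the C chain, was at 24.8, 14.2 and 16.9 FPKM in Con., at 24.9, 17.3 and 26.5 FPKM in PTZ and at 32.4 and 22.7 FPKM in Q808, and its groups overlapped in all 3 comparisons. The C1qa to C1qb ratio of FPKM was 1.84 ± 0.202 (SD, n = 8) and stayed between 1.54 and 2.14, while C1qa itself varied 2.53-fold.

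Group means of C1qa were 56.4 ± 7.85 FPKM in Con. (SD, n = 3), 68.6 ± 19.3 FPKM in PTZ (n = 3) and 92.5 ± 40.4 FPKM in Q808 (n = 2). The log2 difference of Q808 from Con. was 0.65 for C1qa (95% interval -0.11 to 1.41), 0.61 for C1qb (-0.04 to 1.25) and 0.58 for C1qc (-0.15 to 1.31), with unadjusted limma p-values of 0.0806, 0.0611 and 0.0982 and an adjusted p of 0.901 for each. Against PTZ the same differences were 0.40, 0.45 and 0.27, and those of PTZ from Con. were 0.25, 0.16 and 0.31. Single libraries set these sizes. Without Q808-1 the C1qa difference of Q808 from Con. was 0.19 and that from PTZ was -0.06. Without Q808-2, C1qa rose by 1.11 and C1qb by 0.97 against Con. and C1qb by 0.82 against PTZ, and without Con.-1, C1qc rose by 0.81 against Con., all past the call. The fit without Con.-1 called 2.40% of all genes. Wherever 1 Q808 library is left out, the other is alone in its group and is assumed to vary like the group it is compared with. Calls over all genes were then also more frequent without Q808-2, at 11.5% against Con. and 8.34% against PTZ. Within the 5 libraries low in striatal markers the differences of Q808 from Con. were 0.22 for C1qa, 0.24 for C1qb and 0.28 for C1qc, and within the other 3 they were 1.05, 0.98 and 0.94. Those of Q808 from PTZ were 0.13, 0.18 and 0.13 in the 5 libraries and 0.48, 0.61 and 0.29 in the 3.

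Microglial markers varied in the same libraries. The 12 markers, all detected in every library, summed to 249 to 285 FPKM in Con., 224 to 394 FPKM in PTZ and 566 and 316 FPKM in Q808-1 and Q808-2, so that Q808-1 was again the highest. The mean log2 level of the 3 C1q genes spanned 1.23 over the 8 libraries, and spanned 0.45 (from 1.71 to 2.16) once the mean log2 level of the microglial markers in the same library was subtracted. After that subtraction Q808-1 (1.72) and Q808-2 (1.99) lay inside the range of the Con. libraries (1.71 to 2.07). Markers of perivascular macrophages, which also make C1q, summed to 2.40 to 4.15 FPKM in Con., 3.07 to 4.995 FPKM in PTZ and 8.71 to 11.1 FPKM in Q808, with Ms4a7 at 0 in 3 libraries. Oligodendrocyte markers were also highest in Q808-1, where 8 genes summed to 13581 FPKM. So were the summed markers of astrocytes (2753 FPKM), endothelium (190 FPKM), mural cells (164 FPKM) and erythroid cells (2581 FPKM). Neuron markers were lowest in Q808-1 (1280 FPKM). The part of these cell types in the C1q differences was not tested. Among 12563 genes with a mean of at least 1 FPKM, those whose centred log2 levels over the 8 libraries lay nearest to C1qa were Ctss (root mean square difference 0.090), Npc2 (0.096) and Laptm5 (0.099), against 0.41 for C1qa around its own mean. Ctss, which encodes cathepsin S, is also one of the 12 microglial markers.

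The 3 C1q genes lie side by side on chromosome 5 in GRCr8, in the order C1qb, C1qc, C1qa. The 250 bases before the start of C1qa (chr5:154419934-154420183, minus strand) and C1qb (chr5:154407828-154408077, minus strand) are shown from RefSeq GRCr8 because these genes varied together; the table of promoters used here held 4 of the 8 genes (C1qa, C1qb, C1r and C3). Capitals mark GAGGAA or GGAAGT on either strand, the letters bound by ETS factors such as PU.1, which microglia need to develop, and in the C3 sequence below them TTGCNNAA, a short form of the site of C/EBP factors. C3 is shown as the member that varied most.
C1qa: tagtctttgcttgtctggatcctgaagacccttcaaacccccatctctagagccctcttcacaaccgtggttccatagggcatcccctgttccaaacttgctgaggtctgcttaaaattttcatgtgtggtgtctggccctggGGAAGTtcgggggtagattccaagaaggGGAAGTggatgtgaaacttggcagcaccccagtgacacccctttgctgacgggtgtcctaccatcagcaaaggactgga
C1qb: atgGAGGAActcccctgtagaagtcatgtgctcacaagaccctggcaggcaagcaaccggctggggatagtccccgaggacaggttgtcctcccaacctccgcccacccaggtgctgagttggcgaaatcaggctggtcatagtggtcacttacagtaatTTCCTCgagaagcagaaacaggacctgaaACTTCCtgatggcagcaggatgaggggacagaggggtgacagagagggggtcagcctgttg
C3: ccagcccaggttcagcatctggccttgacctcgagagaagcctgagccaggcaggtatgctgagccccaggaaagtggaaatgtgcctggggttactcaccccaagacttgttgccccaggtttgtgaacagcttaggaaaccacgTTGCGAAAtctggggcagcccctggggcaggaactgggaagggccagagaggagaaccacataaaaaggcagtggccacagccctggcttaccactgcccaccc
C1qa carried GGAAGT at 107 and at 79 bases before its start, and C1qb carried GAGGAA at 247 bases and, on the opposite strand, GAGGAA at 90 bases and GGAAGT at 61 bases. Neither letter run was found in the 250 bases of C3 (chr9:2201340-2201589, minus strand), and C1r held GAGGAA once, 55 bases before its start on the opposite strand. Such letters are common, since GAGGAA occurred in 23.2% and GGAAGT in 19.5% of 27457 promoters of that length. TTGCNNAA was found in C3 (104 bases before the start) and C1r (83 bases, opposite strand), as in 9.20% of all promoters. TTCNNNGAA, the letters of STAT factors, stood in C1qa alone of the 4, at 90 bases, and in 7.52% of all promoters, and TATAAA in none of the 4 and in 13.1% of all. The matches describe letters and not binding.

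The proteases that C1q activates followed other libraries. C1r was at 5.30, 5.80 and 2.91 FPKM in Con., at 3.82, 2.57 and 4.65 FPKM in PTZ and at 4.43 and 8.64 FPKM in Q808. C1s, its substrate and the protease that cleaves C4 and C2, was at 2.69, 2.82 and 1.59 FPKM in Con., at 2.602, 1.86 and 1.93 FPKM in PTZ and at 1.74 and 3.95 FPKM in Q808. Q808-2 was the highest library for both genes, not Q808-1 as for C1q, and the groups overlapped throughout. C1r and C1s are neighbours on chromosome 4, and their ratio lay between 1.39 and 2.56.

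C1r was 0.78 higher on the log2 scale in Q808 than in PTZ (95% interval -0.19 to 1.74, adjusted p = 0.952, limma), and 0.46 higher than in Con. (-0.60 to 1.52). PTZ differed from Con. by -0.31 (-1.12 to 0.49). The sign of this last difference turned with the kind of library, since C1r was 0.66 higher in PTZ-3 than in Con.-3 whereas among the 5 libraries low in striatal markers it fell by 0.80 from Con. to PTZ. That fall passed the call, as did, in the same 5 libraries, its rise by 1.43 from PTZ to Q808 and by 0.63 from Con. to Q808, each Q808 value resting on Q808-2 alone. Over all genes 9.81%, 9.26% and 4.71% were called in these 3 fits. Without Q808-1 the rise of C1r over PTZ was 1.25, and without Q808-2 it was 0.30, each with 1 Q808 library left. C1s differed by -0.12 between PTZ and Con., by 0.31 between Q808 and PTZ and by 0.19 between Q808 and Con. Its 95% intervals reached beyond 1.5-fold in both directions in every comparison, and it was called in no alternative.

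Markers of meningeal fibroblasts and of the choroid plexus also peaked in Q808-2. The 8 fibroblast markers summed to 6.28 to 27.9 FPKM in Con., 18.9 to 32.1 FPKM in PTZ and 16.0 and 61.7 FPKM in Q808-1 and Q808-2, although the meninges had been removed. The 8 choroid plexus markers summed to 92.5 to 2543 FPKM in Con., 278 to 490 FPKM in PTZ and 163 and 6459 FPKM in Q808-1 and Q808-2, with the defining factor Otx2 at 0 in all libraries. The mean log2 level of C1r and C1s spanned 1.40 over the libraries, and 1.55 after the fibroblast mean was subtracted. The fibroblast mean itself varied more widely, from -0.72 in Con.-3 to 1.85 in Q808-2. A subtraction of a wider series cannot show whether fibroblasts took part. The choroid plexus mean was not subtracted. It was 2.80 in Con.-1, 2.96 in Con.-2 and 4.31 in Q808-2, and 0.014 to 1.35 in the other libraries. The C1r and C1s mean was 1.96, 2.05 and 2.57 in the same libraries, and 1.17 to 1.70 in the others. Whether these tissues took part in the C1r and C1s levels was not tested. The genes nearest to C1r were Nt5dc2 (root mean square difference 0.18), Mospd1 (0.18) and Eps8l2 (0.19), while C1s stood at 0.29 from C1r, as rank 55. Those nearest to C1s were Slc2a6 (0.15), Spr (0.16) and Znhit2 (0.17).

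**Figure D3:**
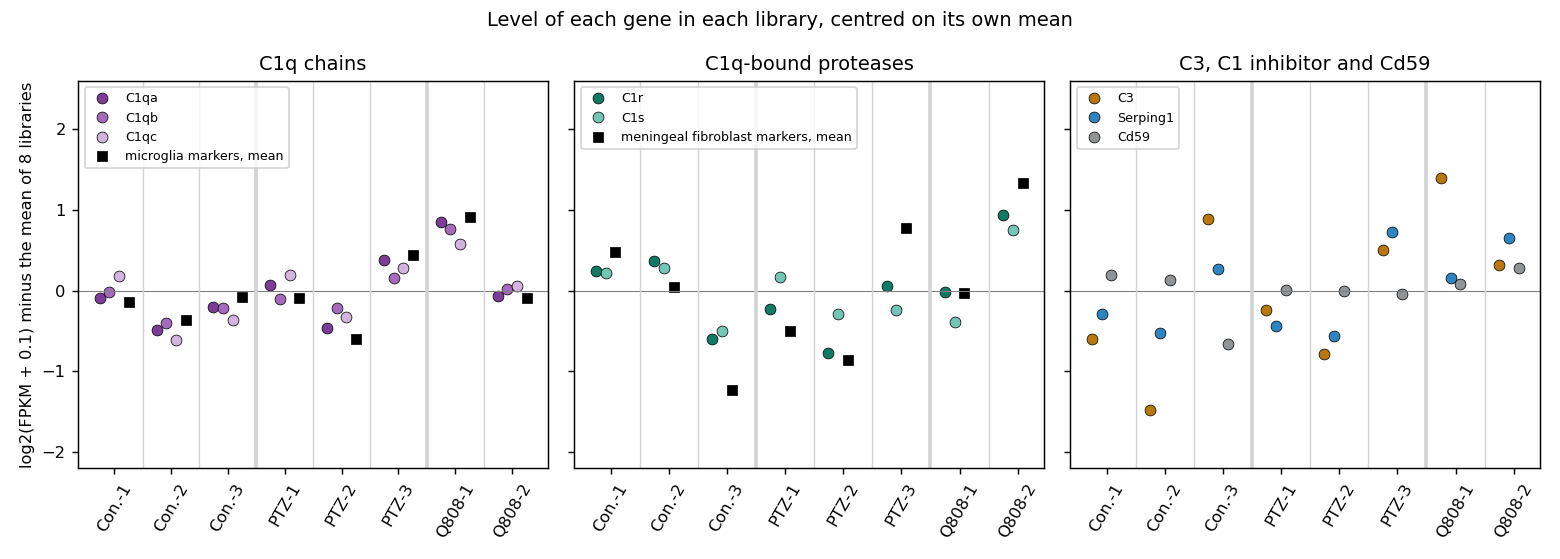
log2(FPKM + 0.1) of each gene in each library, centred on the gene's mean over the 8 libraries; circles are the complement genes, squares are the mean of a marker list, and thick vertical lines part the groups. The C1q circles lie close to the microglial squares with their peak in Q808-1, C1r and C1s peak in Q808-2, and C3 is high in Con.-3, PTZ-3 and Q808-1.

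C3, on which all complement pathways meet, varied most. It was at 2.30, 1.20 and 6.59 FPKM in Con., at 2.96, 2.01 and 5.04 FPKM in PTZ and at 9.41 and 4.41 FPKM in Q808. The highest library of each group was the one rich in striatal markers, and the 3 such libraries (5.04 to 9.41 FPKM) lay above the other 5 (1.20 to 4.41 FPKM), a 2.80-fold difference in which no value overlapped. The same 3 also had the highest sums of oligodendrocyte markers (6957 to 13581 FPKM, against 2668 to 4406 FPKM). Their sums of neuron markers were the lowest (1280 to 1907 FPKM, against 2540 to 3277 FPKM). The part of these cell types in the C3 levels was not tested. Group means were 3.36 ± 2.85 FPKM in Con. (SD, n = 3), 3.34 ± 1.55 FPKM in PTZ (n = 3) and 6.91 ± 3.54 FPKM in Q808 (n = 2), and the groups overlapped. On the log2 scale Q808 was 1.03 above PTZ (95% interval -0.17 to 2.22, adjusted p = 0.952, limma) and 1.25 above Con. (-0.60 to 3.10, adjusted p = 0.901, limma), while PTZ was 0.22 above Con. (-1.24 to 1.69).

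Compared within each kind of library, C3 was higher in Q808 than in PTZ by 0.89 among the 3 libraries rich in striatal markers and by 0.83 among the other 5, and higher than in Con. by 0.51 and by 1.35. With that split as a term in the fit, an alternative added after the data were seen, Q808 was 0.85 above PTZ (adjusted p = 0.738, limma). It was 0.99 above Con. (adjusted p = 0.467, limma). Both differences were called, in fits that called 3.78% and 6.53% of all genes. The adjusted p of C3 over all alternatives ran from 0.385 to 1 against PTZ and from 0.460 to 1 against Con. Leaving out PTZ-3 gave 1.37 against PTZ and leaving out Con.-3 gave 1.89 against Con. Both were called, in fits that called 10.1% and 4.51% of all genes. Leaving out Q808-2, with Q808-1 then alone in its group, gave 1.57 against PTZ. In the other direction, leaving out Q808-1 gave 0.49 against PTZ and 0.71 against Con., and leaving out Con.-2 gave 0.71 against Con., none of them called. PTZ against Con. turned sign between the sets, at -0.38 in the 3 and 0.52 in the 5. The genes nearest to C3 were Dock5 (root mean square difference 0.24), Arhgap9 (0.25) and Carns1 (0.28), against 0.89 for C3 around its own mean, and among the members Serping1 and C1qa were nearest, at 0.63 and 0.62.

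Serping1, the gene of the C1 inhibitor, was at 4.82, 4.06 and 7.13 FPKM in Con., at 4.32, 3.94 and 9.82 FPKM in PTZ and at 6.58 and 9.33 FPKM in Q808. Its highest library was PTZ-3, and within Con. and PTZ the library rich in striatal markers was the highest, but in Q808 it was the lower of the pair. Q808 was 0.59 above Con. (95% interval -0.18 to 1.35, adjusted p = 0.901, limma), 0.50 above PTZ (-0.57 to 1.56), and PTZ was 0.09 above Con. (-0.84 to 1.01). Among the 5 libraries low in striatal markers Serping1 rose by 1.16 from PTZ to Q808 and by 1.06 from Con. to Q808. Q808-2 was the only Q808 library there, so those fits took their spread from the other group. In contrast, Q808-1 differed from PTZ-3 by -0.57 and from Con.-3 by -0.11. Without PTZ-3 the rise of Serping1 over PTZ was 0.91, and without Con.-3 its rise over Con. was 0.81. Both were called, in fits that called 10.1% and 4.51% of all genes. The difference from PTZ was 0.33 without PTZ-1, 0.26 without PTZ-2 and 0.25 without Q808-2, and that from Con. was 0.41 without Con.-2 and 0.34 without Q808-2, none of them called. Nearest to Serping1 were Pola2 (0.15), Ccdc138 (0.16) and Aebp1 (0.16).

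Cd59 was at 98.7, 94.3 and 54.6 FPKM in Con., at 86.5, 85.8 and 83.9 FPKM in PTZ and at 91.0 and 105 FPKM in Q808. The PTZ libraries were nearly level (85.4 ± 1.36 FPKM, SD, n = 3), both Q808 libraries lay above them, and Con.-3 stood far below all others. The differences were 0.19 between Q808 and PTZ (95% interval -0.19 to 0.57), 0.29 between Q808 and Con. (-0.45 to 1.03) and 0.10 between PTZ and Con. (-0.44 to 0.64). Only the Q808 to PTZ interval stayed within 1.5-fold on both sides. Without Con.-3 the PTZ difference from Con. was -0.18 and that of Q808 from Con. was 0.016. Among the 5 libraries low in striatal markers Q808 differed by 0.28 from PTZ and by 0.12 from Con. Nearest to Cd59 were Laptm4b (0.069), Pls3 (0.10) and Ltbp4 (0.10).

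Other genes of the complement system gave calls where the 8 did not. A list of 44 such genes held 29 with a mean of at least 0.1 FPKM, the minimum for a test, and 3 (C8a, C9 and Vsig4) listed at 0 in all libraries. None of the 29 was called in PTZ against Con. or had an unadjusted limma p under 0.05, and 1 (Cd55, a regulator, which then fell by 0.81) was called when the replicate number was taken as a block. In Q808 against PTZ, 3 of 29 were called higher and none lower, while 1.36% of all genes were called higher. In Q808 against Con., 8 of 29 were called higher and none lower, while 3.07% of all genes were called higher. With or without a call, 23 and 22 of the 29 were higher in Q808 in these comparisons. No adjusted limma p was under 0.05, the lowest being 0.952 and 0.901. The median log2 difference of the 29 was 0.015, 0.46 and 0.51 in the 3 comparisons, beside 0.13, 0.42 and 0.58 for the 8 members. Without the 3 libraries rich in striatal markers, 4 of 29 were called in PTZ against Con. (1 higher, 3 lower), 8 in Q808 against PTZ and 7 in Q808 against Con., with 9.81%, 9.26% and 4.71% of all genes called.

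Among the activating factors, C2, which C1s cleaves, was at 4.34, 3.998 and 4.57 FPKM in Con. and at 6.94 and 6.45 FPKM in Q808, a rise of 0.63. Cfb, the matching factor of the alternative pathway, rose by 0.88 and C4b by 0.92 over Con., but C4b shares near-identical sequence with C4a, so reads may be split between them. Among the regulators Vtn, whose product vitronectin blocks the terminal pore, was at 9.63, 12.001 and 9.05 FPKM in Con., at 8.99, 8.08 and 16.4 FPKM in PTZ and at 18.8 and 24.2 FPKM in Q808. It rose by 1.06 over Con., a call kept in 15 of 15 alternatives, and by 1.00 over PTZ, a call kept in 12 of 15. Markers of mural cells, 7 genes all detected, were high in the same libraries, with sums of 69.6 to 82.9 FPKM in Con., 72.3, 59.8 and 158 FPKM in PTZ and 164 and 132 FPKM in Q808, and their part in the Vtn levels was not tested.

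C7, a part of the terminal pore, was at 5.87 FPKM in Q808-2 and between 0.409 and 1.76 FPKM in the other libraries. Its rises were 1.87 over PTZ and 1.61 over Con., which without Q808-2 were 1.03 and 0.77 and no longer called. The receptor C5ar1 rose by 1.19 over Con., from 0.521, 0.607 and 0.485 FPKM to 1.34 and 1.35 FPKM. It was called in 14 of 14 alternatives. Itgam, a chain of the microglial receptor for C3 fragments, rose by 0.74, which without Q808-1 was 0.34 and not called. Of the lectins, Fcna rose by 1.07 over Con. and the scavenger receptor Colec12 by 0.96 over PTZ. Leaving out single libraries ended further calls and made others, since without PTZ-3 the calls in Q808 against PTZ went from 3 to 9, with those over all genes going from 1.92% to 10.1%, and without Con.-2 those in Q808 against Con. went from 8 to 3, with those over all genes going from 3.46% to 1.79%. In PTZ against Con., Cd55 was called without Con.-3 (-1.01) or PTZ-2 (-1.05), Csmd3 without Con.-1 (-0.82) and Cr1l without PTZ-3 (-0.59). In Q808 against PTZ, the calls of C7, Colec12 and Vtn were lost without PTZ-1 (at 1.81, 1.00 and 0.88) and without PTZ-2 (at 1.45, 0.92 and 0.81), and those of Colec12 and Vtn also without Q808-2 (at 0.57 and 0.82). In Q808 against Con., the call was lost for C2 without Con.-2 or Q808-1 (at 0.58 and 0.57), for Cfb without Q808-2 (at 0.82), for C4b without Q808-2 or any Con. library (0.60 to 1.05), for C7 and Itgam without any one Con. library (1.21 to 1.83 and 0.74 to 0.75), and for Fcna without Con.-2, Con.-3 or either Q808 library (0.87 to 1.17).

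**Figure D4:**
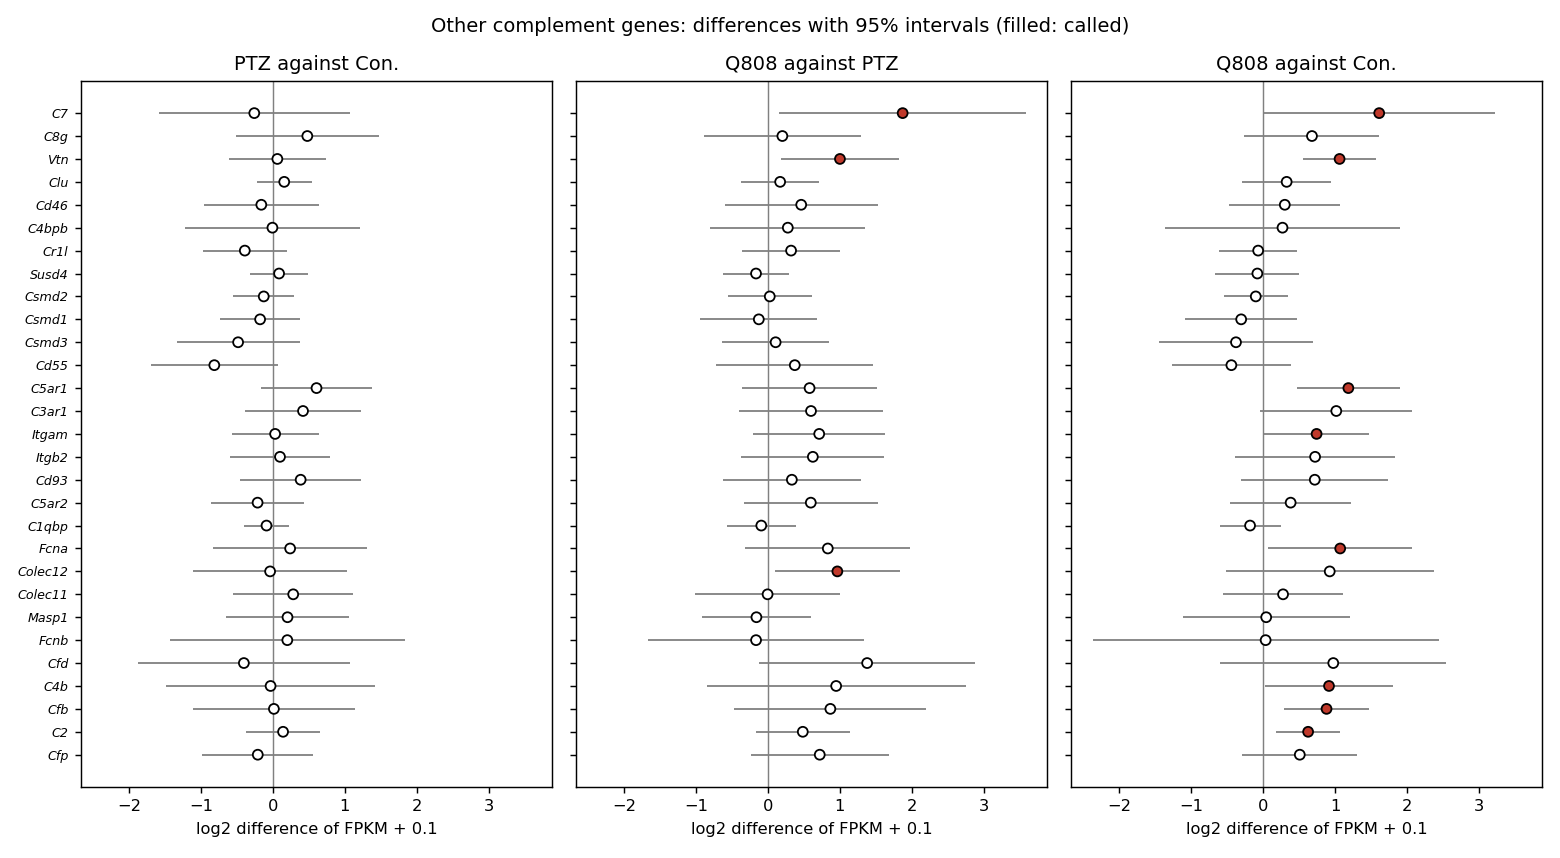
Differences of log2(FPKM + 0.1) for the 29 other complement genes tested, in the 3 comparisons, first-named group minus second, with 95% limma intervals as lines and called genes filled. No gene is filled in PTZ against Con., 3 are in Q808 against PTZ and 8 in Q808 against Con., all to the right of 0.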

How the data were processed

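Before deposit, adapters and poor reads were removed with Trimmomatic, and the authors used Cufflinks to turn the mapped reads into the deposited gene levels in FPKM. The submitters' processing notes also name HISAT2, Bowtie2, SAMtools, StringTie, HTSeq and DESeq, without versions. The genome build is not given in the sources used here, so RefSeq GRCr8 was used for names, gene order and promoters only. The files hold no counts. The worth of 1 read relative to Con.-1 was read from low genes, and whole reads were then searched up to 500000 (tolerance 1e-08 of a value plus 1e-05). These are the smallest whole numbers with the observed ratios.

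The 15593 genes with a mean of at least 0.1 FPKM were tested on log2(FPKM + 0.1), which understates changes of low genes, with limma 3.58.1 in R 4.3.3 (empirical Bayes with a trend), each comparison on its own 2 groups, with Benjamini-Hochberg adjusted p-values over all genes. A call was an unadjusted p under 0.05 and more than 1.5-fold change. Tables and figures used Python 3.11.15 with numpy 2.4.6, pandas 2.3.3 and matplotlib 3.10.9, and the fit was tested on simulated data. The replicates are libraries of separate rats as the study describes them. Same-numbered Con. and PTZ libraries deviated from their group means together (r = 0.21, 0.30 and 0.42 over genes). Con.-2 and PTZ-1, with unlike numbers, reached r = 0.32, and the 0.42 joins Con.-3 and PTZ-3, both rich in striatal markers. The numbers were therefore not shown to pair the rats, and the main fits used no pairing. For same-numbered Q808 libraries r was -0.38 and 0.53 with Con. and -0.30 and 0.32 with PTZ. With 2 Q808 libraries the deviations of one mirror those of the other, so these values cannot show whether the Q808 numbers pair the rats.

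The members, gene lists, motifs and tests were chosen with earlier results of these data known. Named were the 8 members, other complement genes called in at least 1 comparison, the 3 nearest genes of C1qa, C1s, C1r, C3, Serping1 and Cd59, and marker genes beside a member's result. Cd55, Csmd3, Cr1l and the genes listed at 0 were named after their values were seen. Alternatives were another pseudocount, other filters, all groups in 1 fit, quantile and median ratio scaling, the replicate block, and libraries left out. The striatal set as a term and limma voom weights on the recovered reads were added after seeing the data. 1 gene of the complement list is not reported here and was left out of its counts.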

Additional observations from a re-analysis of the deposited data

How the results depend on the processing

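Of 368 member differences over 46 alternative fits, 327 kept their direction and their side of the call, 27 became called and 14 turned sign. With the main settings 0 of 8 members were called in each comparison. Without the 3 libraries rich in striatal markers the counts were 1 in PTZ against Con. (C1r), 2 in Q808 against PTZ (C1r, Serping1) and 3 in Q808 against Con. (C1r, C3, Serping1), while 9.81%, 9.26% and 4.71% of all genes were called. The replicate block gave 0 members in PTZ against Con. Where Q808 is compared, that fit takes the difference from replicates 1 and 2 alone. It called 3 against PTZ (C1qa, C3, Serping1) and 4 against Con. (C1qa, C1qb, C3, Serping1). Same-numbered libraries were not shown to be paired there, and the fit called 12.1% and 6.9% of all genes. The striatal set as a term called 1 (C3) and 2 (C1r, C3) in these comparisons (3.78% and 6.53% of all genes). In Q808 against Con., 1 fit of all 3 groups called 1 member (C1qb) and 3.02% of all genes. Leaving out PTZ-1, PTZ-2 or PTZ-3 gave 0, 0 and 2 members in Q808 against PTZ (0.847%, 0.956% and 10.1% of all genes). Leaving out Con.-1, Con.-2 or Con.-3 gave 1, 0 and 2 in Q808 against Con. (2.40%, 1.79% and 4.51% of all genes). Fits without 1 Q808 library, which leave the other alone in its group, are given with the genes above. Voom weights on the recovered reads called 0 members in each.

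Signs turned in PTZ against Con. without the 3 libraries for Serping1 (-0.10) and Cd59 (-0.16), and in Q808 against Con. with the replicate block for C1s (-0.066). With single libraries left out, the log2 difference of PTZ from Con. ran from -0.37 to 0.022 for C1s, from -0.32 to 0.86 for C3, from -0.32 to 0.32 for Serping1 and from -0.18 to 0.25 for Cd59. That of Q808 from PTZ ran from -0.063 to 0.86 for C1qa and from -0.27 to 0.88 for C1s, and that of Q808 from Con. from -0.39 to 0.76 for C1s and from -0.013 to 0.93 for C1r. The cause of these turns was not tested. Over all genes, the called counts of 395, 300 and 540 ranged over the alternatives from 219 to 1530, from 132 to 1894 and from 279 to 1799. Of the 29 other complement genes tested, 0, 3 and 8 were called, and 0 to 4, 0 to 9 and 3 to 11 over the alternatives. Quantile normalization changed the split of higher against lower calls from 212 and 88 to 130 and 142 in Q808 against PTZ, and from 479 and 61 to 283 and 158 in Q808 against Con., while all 8 members stayed higher in Q808 in both. The Q808 group had 2 libraries, which differed in striatal, choroid plexus and microglial markers, and this small number limits every comparison with it.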
